A study of Mus musculus with 15 samples.

Results

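The genes described here are those of the urea cycle and of the carriers that connect it to the mitochondrion: Nags, Cps1, Otc, Asl, Arg1, Slc25a15 and Slc25a13. They were chosen by name, as 7 of the 24411 gene symbols in the count files, and all 7 were among the 14098 genes with enough counts to be tested. RNA-seq of polyA RNA was done on liver of male FVB/NJ mice, in 15 libraries that form 5 groups of 3. CTNNB1_NFE2L2_MET livers carried beta-catenin with the S45Y change, NFE2L2 (the transcription factor NRF2) with the G31A change, and human MET, a growth factor receptor. CTNNB1_NFE2L2 livers carried both mutant proteins without MET, CTNNB1_MET livers carried S45Y beta-catenin with human MET, and NFE2L2_MET livers carried G31A NFE2L2 with human MET. WT livers were wild-type FVB. The labels give no age, vector, promoter, time after gene delivery or tumour content for any group. They also do not say which cells of the liver carried the introduced genes, so each model library is a mixture of unknown make-up.

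The urea cycle turns ammonia and bicarbonate into urea, and in the liver its enzymes are made mainly in hepatocytes around the portal vein. NAGS makes N-acetylglutamate, which switches on CPS1. CPS1 and OTC work inside the mitochondrion, while ASS1, ASL and ARG1 work in the cytosol. The ornithine carrier SLC25A15 and the aspartate-glutamate carrier SLC25A13 supply the cycle across the inner mitochondrial membrane, and hepatocytes around the central vein capture the ammonia that escapes the cycle by making glutamine.

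Each library held between 14084343 and 20702618 gene counts, and unmapped reads made up 8.69 to 25.9% of all reads. The unmapped share followed the groups: it was 8.69 to 11.2% in CTNNB1_NFE2L2_MET, 9.71 to 11.8% in CTNNB1_NFE2L2, 15.8 to 19.1% in CTNNB1_MET, 12.7 to 14.2% in NFE2L2_MET and 19.8 to 25.9% in WT. Levels are given as CPM, each count divided by its library total and scaled by TMM, which corrects the totals for composition. Differences are log2 fold changes ± SE from edgeR's quasi-likelihood F test fitted over all 15 libraries, with p-values adjusted by the Benjamini-Hochberg method over all genes tested in a comparison and a threshold of 0.05. Nothing in the labels says outright that the 3 libraries of a group came from separate mice, so p-values measure the spread between these libraries.

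The cycle has 1 more enzyme, Ass1, argininosuccinate synthase, which could not be measured in these files. Ass1 received 0 to 4 counts per library, 26 in all 15 libraries together, and its processed pseudogene Gm5424 received 0. In the GRCm38 (mm10) annotation Ass1 is on chromosome 2 (chr2:31470207-31520672, + strand) and Gm5424 is on chromosome 10 (chr10:62071123-62072362, + strand). Over 1240 aligned bases the transcripts of the pair are 99.52% identical, and 55.31% of all 50-base windows of the Ass1 transcript also occur in Gm5424. The 90-base coding stretch below, bases 340 to 429 from the Ass1 start codon, is shown because it is the one with the most differences, and it has 2, marked by capitals. Reads that align equally well to more than 1 place are left out of STAR's gene counts, and whether that is what emptied Ass1 was not tested.
Ass1: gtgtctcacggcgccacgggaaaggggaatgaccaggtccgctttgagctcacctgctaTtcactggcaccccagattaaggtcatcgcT
Gm5424: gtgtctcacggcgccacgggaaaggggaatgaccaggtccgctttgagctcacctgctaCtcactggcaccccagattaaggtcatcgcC

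No 50-base window of the Cps1, Otc, Asl, Arg1, Slc25a15 or Slc25a13 transcript occurs in another gene. For Nags the share is 20.01%, all of it where the antisense gene Gm11586 lies across the locus. The counts used were taken without regard to strand, so reads from that stretch cannot be assigned to Nags or Gm11586. Whether they entered the Nags count or were left out as ambiguous was not tested. The 7 genes lie on 7 chromosomes of GRCm38: Cps1 on chromosome 1 (chr1:67123026-67231259, +), Slc25a13 on chromosome 6 (chr6:6041218-6217173, -), Slc25a15 on chromosome 8 (chr8:22375551-22398597, -), Asl on chromosome 5 (chr5:130011258-130029247, -), Arg1 on chromosome 10 (chr10:24915221-24927484, -), Nags on chromosome 11 (chr11:102145513-102149477, +) and Otc on the X chromosome (chrX:10252305-10321024, +).

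Where mutant beta-catenin and mutant NFE2L2 were both present, with or without MET, the 4 enzymes Cps1, Otc, Asl and Arg1 all fell against WT, to between 14.4 and 40.8% of the WT level. With either mutant protein alone beside MET, Cps1, Otc and Asl did not pass the test. Arg1 fell in all 3 groups with mutant beta-catenin, and the ornithine carrier Slc25a15 fell in all 3 groups with mutant NFE2L2. The 7 genes together summed to 1295 to 1978 CPM in CTNNB1_NFE2L2_MET libraries, 1244 to 2012 CPM in CTNNB1_NFE2L2, 3408 to 4756 CPM in CTNNB1_MET, 5212 to 6007 CPM in NFE2L2_MET and 4906 to 7536 CPM in WT. In bulk liver RNA, fewer cells that make these transcripts and less transcript per cell cannot be told apart.

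**Figure D1:**
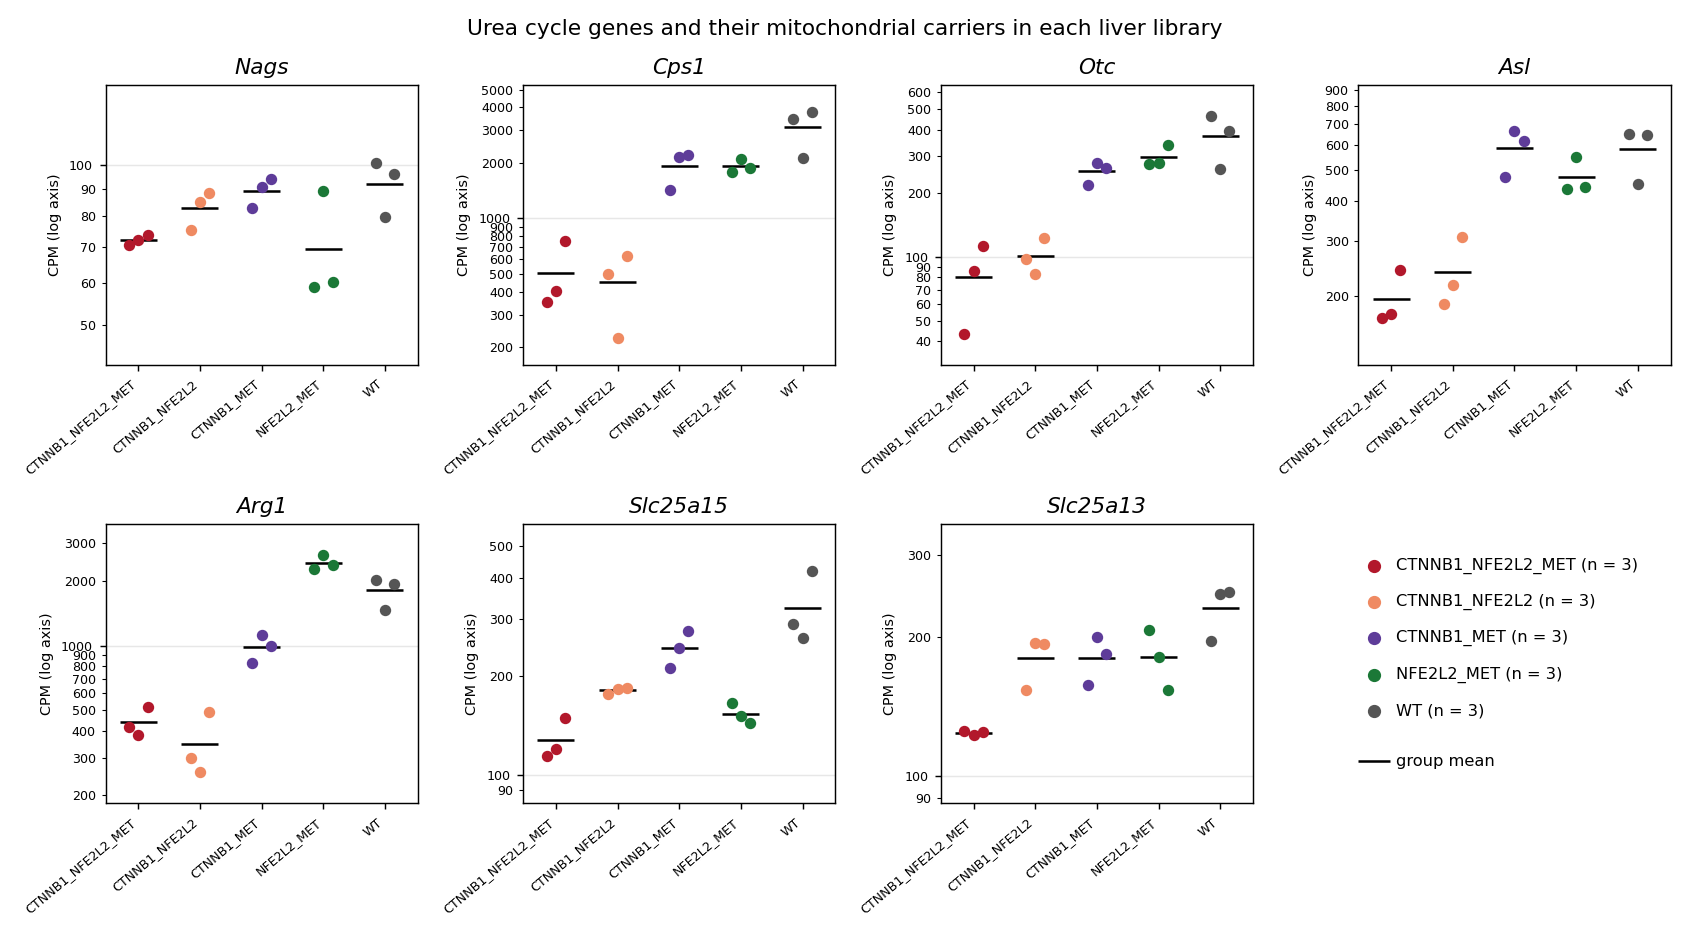
TMM-scaled CPM (log axis) of the 7 genes in every library; points are libraries, 3 per group, and black lines are group means. Cps1, Otc, Asl and Arg1 are low in both groups that carry mutant beta-catenin and mutant NFE2L2, Arg1 is also low in CTNNB1_MET, and Slc25a15 is low in NFE2L2_MET.

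Nags, which makes the obligate activator of CPS1, varied least. It had 70.8, 72.1 and 73.8 CPM in CTNNB1_NFE2L2_MET livers, 75.4, 85.1 and 88.3 in CTNNB1_NFE2L2, 82.9, 90.6 and 93.8 in CTNNB1_MET, 59.0, 89.3 and 60.3 in NFE2L2_MET, and 100.7, 79.7 and 95.9 in WT. The CTNNB1_NFE2L2_MET libraries sat just below the lowest WT library, and the NFE2L2_MET group was split, with its replicate 2 inside the WT range. The fall against WT was by 0.35 ± 0.14 in CTNNB1_NFE2L2_MET (adjusted p = 0.0468) and by 0.41 ± 0.14 in NFE2L2_MET (adjusted p = 0.0466), both at the edge of the threshold. The first call was lost without any 1 of 10 libraries and the second without any 1 of 12, and over the 5 groups together Nags did not pass (adjusted p = 0.056). In CTNNB1_NFE2L2 the log2 fold change was -0.15 ± 0.14 (adjusted p = 0.394) and in CTNNB1_MET -0.05 ± 0.14 (adjusted p = 0.851).

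Cps1, carbamoyl phosphate synthetase, the entry step and the most counted of the 7 in WT, had 354, 404 and 754 CPM in CTNNB1_NFE2L2_MET livers and 502, 226 and 628 CPM in CTNNB1_NFE2L2 livers. It had 1429, 2157 and 2205 CPM in CTNNB1_MET, 1787, 2104 and 1879 CPM in NFE2L2_MET, and 3468, 2137 and 3783 CPM in WT. Both groups with the mutant pair lay wholly below every other library. CTNNB1_MET overlapped WT, while NFE2L2_MET lay below the lowest WT library by a small margin. Cps1 fell by 2.63 ± 0.38 in CTNNB1_NFE2L2_MET (16.1% of WT, adjusted p = 6.99e-05) and by 2.79 ± 0.38 in CTNNB1_NFE2L2 (14.4% of WT, adjusted p = 5.09e-05). The log2 fold change was -0.70 ± 0.36 in CTNNB1_MET (adjusted p = 0.204) and -0.70 ± 0.36 in NFE2L2_MET (adjusted p = 0.178).

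Otc, ornithine transcarbamylase, which joins carbamoyl phosphate to ornithine, had 43.4, 85.6 and 113 CPM in CTNNB1_NFE2L2_MET and 98.2, 82.6 and 122.4 CPM in CTNNB1_NFE2L2. It had 219, 279 and 264 CPM in CTNNB1_MET, 274, 279 and 337 CPM in NFE2L2_MET, and 464, 261 and 392 CPM in WT. The first 2 groups overlapped each other and lay below all others, and both remaining models overlapped WT. Otc fell by 2.20 ± 0.30 in CTNNB1_NFE2L2_MET (21.7% of WT, adjusted p = 4.56e-05) and by 1.88 ± 0.30 in CTNNB1_NFE2L2 (27.2% of WT, adjusted p = 0.000176). It did not pass in CTNNB1_MET (-0.55 ± 0.29, adjusted p = 0.21) or NFE2L2_MET (-0.33 ± 0.29, adjusted p = 0.445).

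Asl, argininosuccinate lyase, which releases arginine and fumarate, had 170, 175 and 242 CPM in CTNNB1_NFE2L2_MET and 189, 217 and 309 CPM in CTNNB1_NFE2L2. It had 478, 666 and 620 CPM in CTNNB1_MET, 435, 552 and 443 CPM in NFE2L2_MET, and 653, 453 and 649 CPM in WT. For Asl, the lowest library outside the mutant-pair groups, at 435 CPM, stood above the highest inside them, at 309 CPM. Asl fell by 1.58 ± 0.21 in CTNNB1_NFE2L2_MET (33.5% of WT, adjusted p = 2.13e-05) and by 1.29 ± 0.21 in CTNNB1_NFE2L2 (40.8% of WT, adjusted p = 0.000136). The log2 fold change was 0.01 ± 0.21 in CTNNB1_MET (adjusted p = 0.986) and -0.29 ± 0.21 in NFE2L2_MET (adjusted p = 0.33).

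Arg1, the liver arginase that releases urea and ornithine, departed from the pattern of the other 3 enzymes. It had 417, 381 and 520 CPM in CTNNB1_NFE2L2_MET, 299, 257 and 488 CPM in CTNNB1_NFE2L2, and 830, 1118 and 997 CPM in CTNNB1_MET. It had 2285, 2650 and 2391 CPM in NFE2L2_MET, and 2027, 1467 and 1948 CPM in WT. All 9 libraries with mutant beta-catenin lay below the lowest WT library, and all 3 NFE2L2_MET libraries lay above the highest. Arg1 fell by 2.05 ± 0.22 in CTNNB1_NFE2L2_MET (24.2% of WT, adjusted p = 2.74e-06), by 2.38 ± 0.23 in CTNNB1_NFE2L2 (19.2% of WT, adjusted p = 6.95e-07) and by 0.89 ± 0.22 in CTNNB1_MET (54.1% of WT, adjusted p = 0.011). In NFE2L2_MET its log2 fold change was 0.43 ± 0.21 and did not pass (adjusted p = 0.164). Without CTNNB1_MET replicate 1 the CTNNB1_MET call was lost (-0.78 ± 0.24, adjusted p = 0.0616).

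Slc25a15, the mitochondrial ornithine carrier (ORNT1), was lowest in the triple combination. It had 115, 120 and 150 CPM in CTNNB1_NFE2L2_MET, 177, 183 and 184 CPM in CTNNB1_NFE2L2, and 212, 245 and 275 CPM in CTNNB1_MET. It had 166, 151 and 144 CPM in NFE2L2_MET, and 290, 262 and 419 CPM in WT. No library of the 3 NFE2L2 groups reached the lowest WT library, whereas CTNNB1_MET overlapped WT. Slc25a15 fell by 1.34 ± 0.16 in CTNNB1_NFE2L2_MET (39.6% of WT, adjusted p = 6.96e-06), by 0.84 ± 0.16 in CTNNB1_NFE2L2 (56.0% of WT, adjusted p = 0.000496) and by 1.08 ± 0.16 in NFE2L2_MET (47.4% of WT, adjusted p = 0.000212). In CTNNB1_MET the log2 fold change was -0.41 ± 0.16 (adjusted p = 0.0887), and it passed without WT replicate 2 (-0.55 ± 0.16, adjusted p = 0.0321).

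Slc25a13 (citrin), the carrier that exports the aspartate used by ASS1, had 125, 123 and 125 CPM in CTNNB1_NFE2L2_MET, 154, 194 and 192 CPM in CTNNB1_NFE2L2, and 158, 200 and 183 CPM in CTNNB1_MET. It had 206, 181 and 154 CPM in NFE2L2_MET, and 196, 247 and 250 CPM in WT. The 3 CTNNB1_NFE2L2_MET libraries were nearly equal and lay below all 12 others, while the double models overlapped each other. Slc25a13 fell by 0.89 ± 0.14 in CTNNB1_NFE2L2_MET (53.8% of WT, adjusted p = 6.74e-05). In the double models the log2 fold change was -0.36 ± 0.14 each, and the adjusted p was 0.0383 in CTNNB1_NFE2L2, 0.0827 in CTNNB1_MET and 0.0689 in NFE2L2_MET. Under total-count scaling the CTNNB1_NFE2L2 call was lost (-0.18, adjusted p = 0.302) and NFE2L2_MET passed (-0.48, adjusted p = 0.0155), as it did with DESeq2 (-0.37, adjusted p = 0.0412). The CTNNB1_NFE2L2 call was also lost when any of WT replicate 2 (adjusted p = 0.13), WT replicate 3 (adjusted p = 0.121) or CTNNB1_NFE2L2 replicate 1 (adjusted p = 0.167) was left out, and the NFE2L2_MET value passed without WT replicate 1 (adjusted p = 0.0345) or NFE2L2_MET replicate 1 (adjusted p = 0.0434), as did the CTNNB1_MET value without WT replicate 1 (adjusted p = 0.0405).

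**Figure D2:**
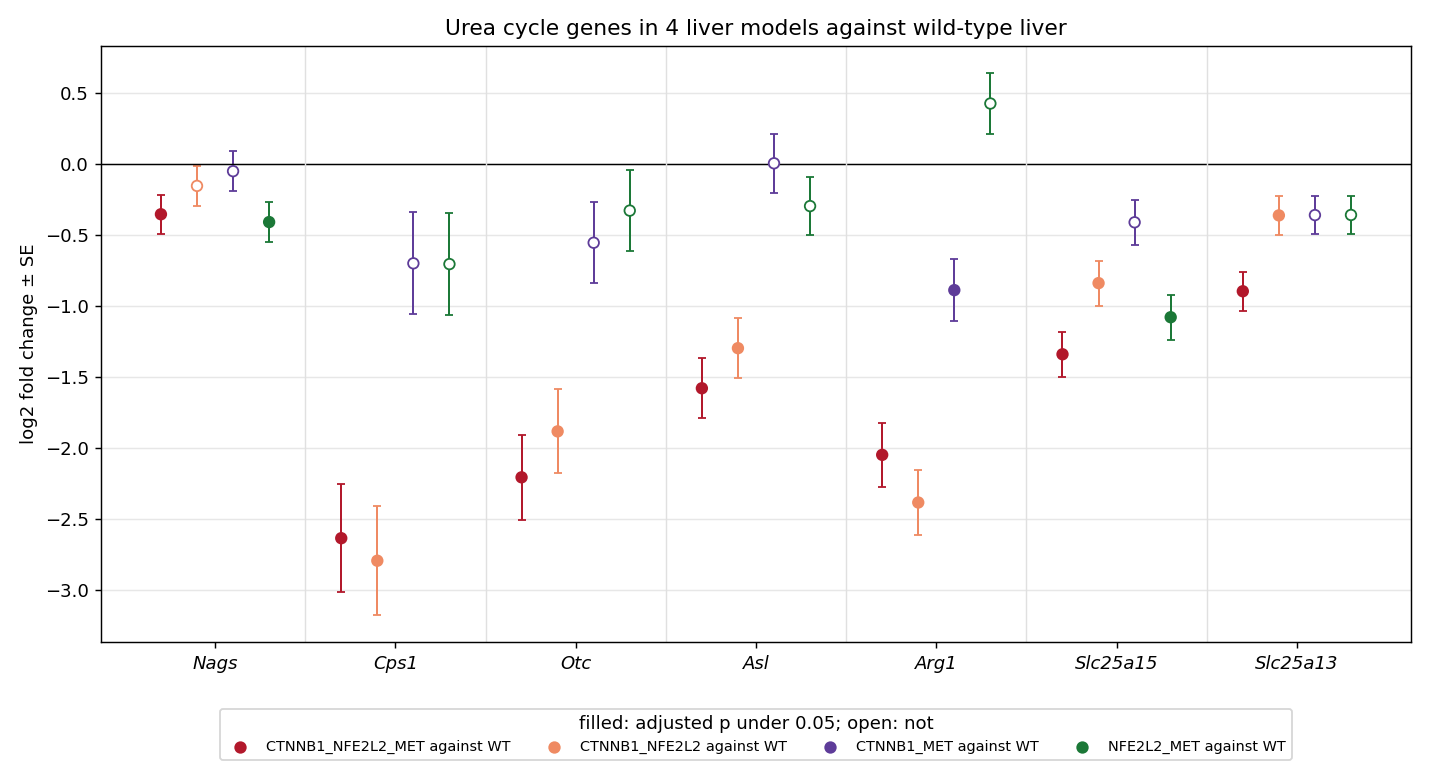
Log2 fold change ± SE of the 7 genes in each of the 4 models against WT liver (3 libraries per group); filled points passed an adjusted p of 0.05 and open points did not. Arg1 in NFE2L2_MET (0.43) is the highest point and Cps1 in CTNNB1_NFE2L2 (-2.79) the lowest.

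Counted together, 7 of 7 genes fell in CTNNB1_NFE2L2_MET against WT, where 49.9% of all tested genes were called and 23.4% were called lower. In CTNNB1_NFE2L2 6 of 7 fell, all but Nags, against 48.7% of all genes called and 24.2% lower. In NFE2L2_MET 2 of 7 fell, Slc25a15 and Nags, against 23.4% called and 9.89% lower, and in CTNNB1_MET 1 of 7, Arg1, against 17.2% called and 6.22% lower. The median log2 fold change of the 7 genes was -1.58 in CTNNB1_NFE2L2_MET, -1.29 in CTNNB1_NFE2L2, -0.36 in NFE2L2_MET and -0.41 in CTNNB1_MET. Over all genes tested it lay between -0.02 and 0.00 in the same comparisons. These 4 comparisons share the 3 WT libraries, among which replicate 2 had the lowest level of every one of the 7 genes except Slc25a13. Over the 5 groups together 6 of 7 genes differed, all but Nags, as did 65.5% of all genes.

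The models were then set against each other, which asks what each introduced gene adds to the other pair. For mutant beta-catenin on top of NFE2L2 and MET (CTNNB1_NFE2L2_MET against NFE2L2_MET), 5 of 7 genes fell, where 30.7% of all genes were called, 16.4% higher and 14.3% lower. Arg1 fell by 2.48 ± 0.23 (18.0% of the NFE2L2_MET level, adjusted p = 1.42e-06), Cps1 by 1.93 ± 0.37 (adjusted p = 0.00152), Otc by 1.88 ± 0.30 (adjusted p = 0.000388), Asl by 1.28 ± 0.21 (adjusted p = 0.000329) and Slc25a13 by 0.54 ± 0.14 (adjusted p = 0.00721). Slc25a15 was already low in NFE2L2_MET, and its difference of -0.26 ± 0.16 did not pass (adjusted p = 0.231). It passed with a term for the 3 libraries whose file names mark them as additions (-0.41 ± 0.11, adjusted p = 0.0102) and without those libraries (-0.39 ± 0.11, adjusted p = 0.0159). Nags did not pass either (0.06 ± 0.14, adjusted p = 0.803). With libraries scaled by their total count alone, the Slc25a13 call was lost (-0.18 ± 0.13, adjusted p = 0.294), Nags passed as a rise (0.43 ± 0.12, adjusted p = 0.00969) and the Slc25a15 value turned to 0.10 (adjusted p = 0.605).

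For mutant NFE2L2 on top of beta-catenin and MET (CTNNB1_NFE2L2_MET against CTNNB1_MET), 6 of 7 genes fell, all but Nags, where 33.8% of all genes were called, 18.4% higher and 15.4% lower. Cps1 fell by 1.94 ± 0.37 (26.1% of the CTNNB1_MET level, adjusted p = 0.00132) and Otc by 1.65 ± 0.29 (adjusted p = 0.000843). Asl fell by 1.58 ± 0.21 (33.3% of the CTNNB1_MET level, adjusted p = 5.5e-05) and Arg1 by 1.16 ± 0.22 (adjusted p = 0.00083). Both carriers fell as well, Slc25a15 by 0.93 ± 0.16 (adjusted p = 0.000407) and Slc25a13 by 0.54 ± 0.14 (adjusted p = 0.00657). For Nags the log2 fold change was -0.30 ± 0.14 (adjusted p = 0.106), and it passed without NFE2L2_MET replicate 2 (adjusted p = 0.0307). Under total-count scaling the Slc25a13 call was lost here too (-0.27 ± 0.13, adjusted p = 0.119).

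For MET on top of the mutant pair (CTNNB1_NFE2L2_MET against CTNNB1_NFE2L2), 2 of 7 genes fell, both of them carriers, where 25% of all genes were called, 13.1% higher and 11.8% lower. Slc25a13 fell by 0.53 ± 0.14 (69.0% of the CTNNB1_NFE2L2 level, adjusted p = 0.00972) and Slc25a15 by 0.50 ± 0.16 (70.65%, adjusted p = 0.0305). None of the 5 enzymes passed: the log2 fold change was 0.16 ± 0.36 for Cps1 (adjusted p = 0.786), -0.32 ± 0.29 for Otc (adjusted p = 0.448), -0.28 ± 0.21 for Asl (adjusted p = 0.344), 0.34 ± 0.21 for Arg1 (adjusted p = 0.275) and -0.20 ± 0.14 for Nags (adjusted p = 0.318). Leaving out any of CTNNB1_NFE2L2_MET replicates 1 and 2 or the 3 CTNNB1_NFE2L2 libraries ended the Slc25a15 call, with adjusted p of 0.0531 to 0.112 and log2 fold changes of -0.52 to -0.43. Without CTNNB1_NFE2L2 replicate 3, which had the highest Arg1 level of its group, Arg1 was higher in the triple combination by 0.66 ± 0.19 (adjusted p = 0.0285).

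The double models were also compared with each other. In CTNNB1_NFE2L2 against CTNNB1_MET, where 35.1% of all genes were called, 17.9% higher and 17.2% lower, 5 of 7 genes fell. Arg1 had a log2 fold change of -1.4963 ± 0.2193 (adjusted p = 8.44e-05). Cps1 fell by 2.10 ± 0.37 (adjusted p = 0.000674), Otc by 1.33 ± 0.29 (adjusted p = 0.00315) and Asl by 1.30 ± 0.21 (adjusted p = 0.000202). The fifth, Slc25a15, fell by 0.43 ± 0.16 at the edge of the threshold (adjusted p = 0.0461) and was lost without any 1 of 9 libraries (adjusted p of 0.0543 to 0.165). In CTNNB1_NFE2L2 against NFE2L2_MET, where 37.2% of all genes were called, 18.3% higher and 18.9% lower, the same 4 enzymes fell: Arg1 by 2.81 ± 0.23 (14.2% of the NFE2L2_MET level, adjusted p = 3.13e-07), Cps1 by 2.09 ± 0.37 (adjusted p = 0.000653), Otc by 1.56 ± 0.29 (adjusted p = 0.00105) and Asl by 1.00 ± 0.21 (adjusted p = 0.00155). Slc25a15 had 0.24 ± 0.16 (adjusted p = 0.254) and Nags 0.25 ± 0.14 (adjusted p = 0.167), and Nags passed without NFE2L2_MET replicate 2 (0.48 ± 0.11, adjusted p = 0.00578). Under total-count scaling both passed as rises, Slc25a15 by 0.55 ± 0.15 (adjusted p = 0.00747) and Nags by 0.58 ± 0.12 (adjusted p = 0.00141).

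CTNNB1_MET and NFE2L2_MET, the 2 models with MET and a single mutant protein, differed in 2 of the 7 genes, in opposite directions. Against NFE2L2_MET, Arg1 fell by 1.31 ± 0.22 in CTNNB1_MET (40.2% of the NFE2L2_MET level, adjusted p = 0.000675), whereas Slc25a15 rose by 0.67 ± 0.16 (adjusted p = 0.00994). In this comparison 14.3% of all genes were called, 6.96% higher and 7.36% lower. The log2 fold change was 0.01 ± 0.36 for Cps1, -0.23 ± 0.29 for Otc, 0.30 ± 0.21 for Asl, 0.36 ± 0.14 for Nags and 0.00 ± 0.14 for Slc25a13, with adjusted p of 0.103 to 0.998. The Slc25a15 difference missed the threshold without CTNNB1_MET replicate 3 (0.57 ± 0.17, adjusted p = 0.0511), and Nags passed without NFE2L2_MET replicate 2 (0.58 ± 0.11, adjusted p = 0.00372) and under total-count scaling (0.47 ± 0.12, adjusted p = 0.018).

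**Figure D3:**
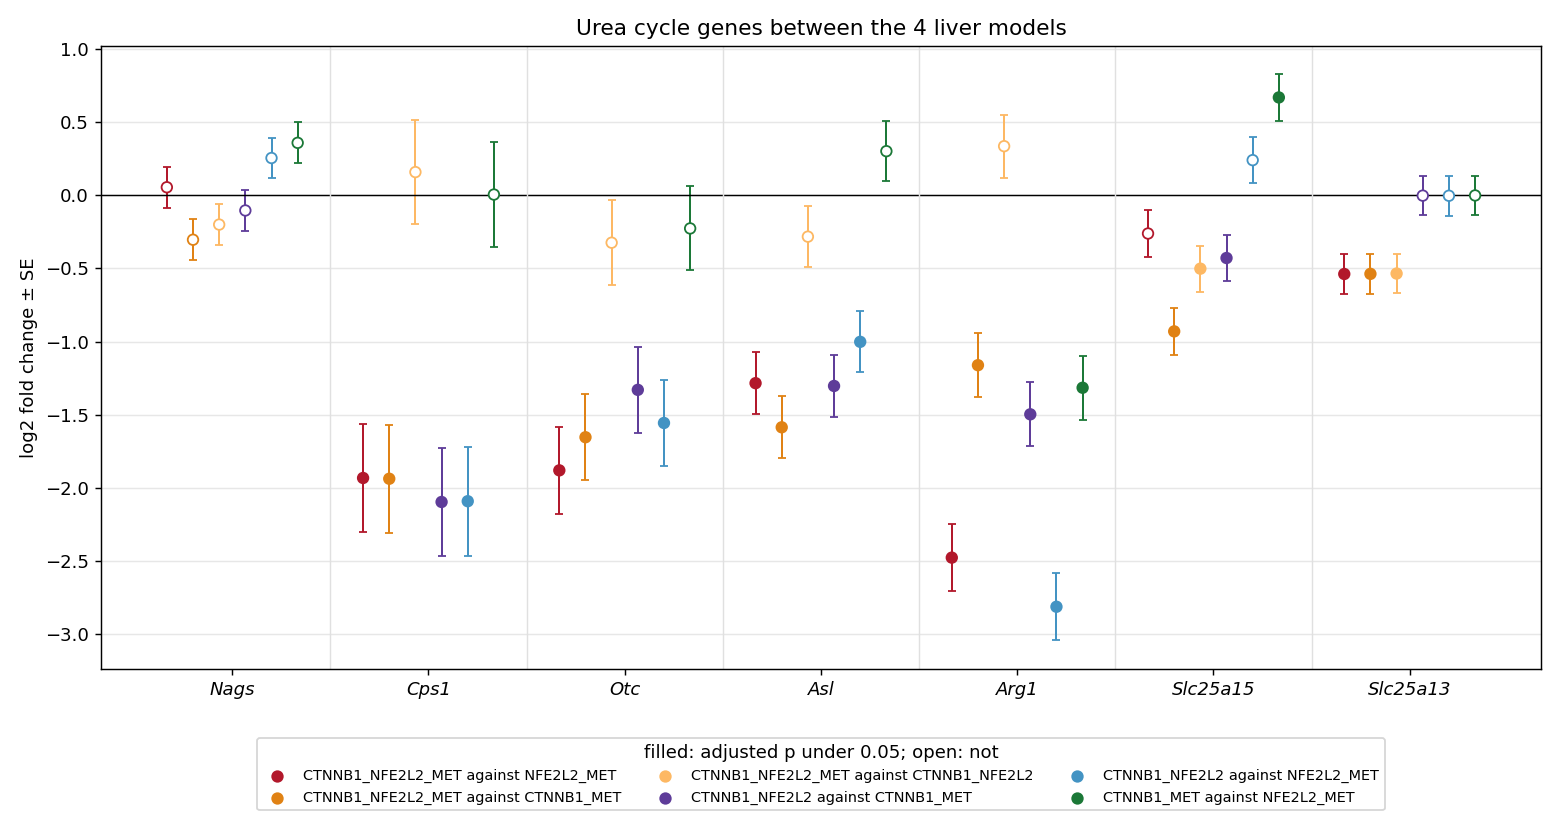
Log2 fold change ± SE of the 7 genes in the 6 comparisons between models (3 libraries per group); filled points passed an adjusted p of 0.05. The enzymes Cps1, Otc, Asl and Arg1 are separated by 1.00 or more between a model with the mutant pair and a model without it, while the comparison of both mutant-pair models is filled only for the carriers.

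Levels were also set against each other per kilobase of the longest annotated transcript, since CPM of genes of different length cannot be compared. Arg1 had the highest level of the 7 genes in every group, at 297 ± 49 CPM per kb in CTNNB1_NFE2L2_MET, 236 ± 84 in CTNNB1_NFE2L2, 665 ± 98 in CTNNB1_MET, 1653 ± 127 in NFE2L2_MET and 1228 ± 205 in WT (SD, n = 3 each). Cps1 came second by mean except in CTNNB1_NFE2L2, where its 81.3 ± 37.0 CPM per kb did not differ from the 98.8 ± 25.9 of Asl beyond their spread. In CTNNB1_NFE2L2_MET Cps1 overlapped Asl too, at 63.7 to 135.8 against 70.5 to 100.5. Otc, at 124 ± 34 CPM per kb in WT, ranked by mean above both carriers and Nags there. By mean Otc came last in both mutant-pair groups, at 26.9 ± 11.7 in CTNNB1_NFE2L2_MET and 33.7 ± 6.7 in CTNNB1_NFE2L2. It overlapped Nags in both, at 14.5 to 37.8 against 34.9 to 36.4 in CTNNB1_NFE2L2_MET and 27.6 to 40.9 against 37.2 to 43.5 in CTNNB1_NFE2L2. In the other 3 groups Nags was last by mean. Slc25a15 lay below Slc25a13 in every NFE2L2_MET library (41.9 to 48.3 against 49.3 to 66.1 CPM per kb). In the other 4 groups the ranges of the carriers overlapped, at 33.4 to 43.6 for Slc25a15 and 39.3 to 40.2 for Slc25a13 in CTNNB1_NFE2L2_MET, 51.6 to 53.6 and 49.3 to 62.1 in CTNNB1_NFE2L2, 61.8 to 80.1 and 50.5 to 64.1 in CTNNB1_MET, and 76.4 to 122.1 and 62.7 to 80.1 in WT. In CTNNB1_NFE2L2_MET Slc25a15 at 37.3 ± 5.5 and Nags at 35.6 ± 0.7 did not differ beyond their spread either.

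The genes whose pattern over the 15 libraries was nearest to each member were found by the root-mean-square difference of centred log2 CPM among 8535 expressed genes; for Cps1 the median of that difference over all of them was 1.24. Nearest to Cps1 were Pigr, the polymeric immunoglobulin receptor (0.19), Gls2, the liver glutaminase that releases ammonia from glutamine (0.19), and Il1rap (0.28). Nearest to Otc were Il1rap (0.25), 2310001H17Rik (0.26) and the bile acid transporter Slc10a1 (0.27). Nearest to Arg1 were 3 further enzymes of nitrogen metabolism, Ftcd (0.33) and Uroc1 (0.33) of histidine breakdown and urate oxidase Uox (0.35). Asl was nearest to Ahcy, which cleaves S-adenosylhomocysteine (0.13), its near-identical copy Gm4737 (0.17) and Slc27a2 (0.24), but 76.98% of the 50-base windows of Ahcy occur in other genes, so the Ahcy and Gm4737 counts are uncertain. Slc25a15 was nearest to sulfite oxidase Suox (0.13), Tesk2 (0.18) and Ipmk (0.19), Slc25a13 to Calcoco1 (0.13), Ech1 (0.13) and B4gat1 (0.14), and Nags to Rp9 (0.12), Dolpp1 (0.12) and Dcaf6 (0.13). Nearest to the mean of all 7 were Hoga1 (0.14), Slc27a2 (0.14), Mgmt (0.16), Pipox (0.17) and Bhmt2 (0.17). Without the 3 libraries whose file names mark them as additions, Ftcd (0.36) was no longer among the 3 genes nearest to Arg1. With counts of a single strand, Rp9 (0.16) was no longer among the 3 nearest to Nags.

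Between members, the same measure was 0.44 for Cps1 and Otc, 0.52 for Cps1 and Arg1, 0.53 for Otc and Arg1, and 0.38 for Otc and Asl. Asl stood between the other enzymes and the carriers, at 0.62 from Cps1 and 0.67 from Arg1 but 0.49 from Slc25a15 and 0.55 from Slc25a13. Nags, though an enzyme, was nearest among the members to the carriers, at 0.29 from Slc25a13 and 0.38 from Slc25a15, and 1.19 from Cps1. Neither carrier was close to it. Over 8535 expressed genes the median difference from Nags was 0.34, and Slc25a13 ranked 2954 and Slc25a15 5300. Over the 15 libraries the SD of log2 CPM was 1.28 for Cps1, 1.18 for Arg1, 1.00 for Otc, 0.74 for Asl, 0.52 for Slc25a15, 0.33 for Slc25a13 and 0.23 for Nags.

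Genes that supply the cycle with ammonia, glutamate and bicarbonate were taken from a list drawn up with earlier results of these data known. Of 10 such genes, 9 fell and 1 rose in CTNNB1_NFE2L2_MET against WT, and 6 fell in CTNNB1_NFE2L2. In NFE2L2_MET 3 fell, and in CTNNB1_MET 1 fell and 1 rose. Over all genes 23.4% were called lower in CTNNB1_NFE2L2_MET, 24.2% in CTNNB1_NFE2L2, 9.89% in NFE2L2_MET and 6.22% in CTNNB1_MET. The median log2 fold change of the list was -1.54 in CTNNB1_NFE2L2_MET, -0.74 in CTNNB1_NFE2L2, -0.42 in NFE2L2_MET and -0.20 in CTNNB1_MET. Gls2 averaged 42.3 ± 21.1 CPM in CTNNB1_NFE2L2_MET and 48.2 ± 25.1 CPM in CTNNB1_NFE2L2, against 280 ± 77 CPM in WT (SD, n = 3 each). It fell by 2.72 ± 0.45 (adjusted p = 0.000353) and by 2.54 ± 0.45 (adjusted p = 0.00062). Gls2 was named for its likeness to Cps1, so a fall beside that of Cps1 follows from the choice and is no separate support. The glutamine transporter Slc38a3 fell by 1.60 ± 0.17 in CTNNB1_NFE2L2_MET (adjusted p = 2.18e-06) and by 1.39 ± 0.17 in CTNNB1_NFE2L2 (adjusted p = 9e-06). The amino acid transporter Slc38a4 fell in all 4 models, by 2.27 ± 0.24 in CTNNB1_NFE2L2_MET, 1.72 ± 0.23 in CTNNB1_NFE2L2, 0.73 ± 0.23 in CTNNB1_MET and 1.12 ± 0.23 in NFE2L2_MET, with adjusted p of 0.0378 or less. In CTNNB1_MET the Slc38a4 call was lost without any 1 of the 3 WT libraries or CTNNB1_MET replicates 1 and 2 (adjusted p of 0.0512 to 0.158). Alanine aminotransferase Gpt fell by 0.92 ± 0.15 in CTNNB1_NFE2L2_MET (adjusted p = 0.00015) and by 0.70 ± 0.15 in CTNNB1_NFE2L2 (adjusted p = 0.00147).

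Glutamate dehydrogenase Glud1, which releases ammonia from glutamate, was the 1 gene of that list that rose. It averaged 1595 ± 56 CPM in CTNNB1_NFE2L2_MET, 982 ± 13 CPM in CTNNB1_NFE2L2, 1568 ± 67 CPM in CTNNB1_MET, 913 ± 86 CPM in NFE2L2_MET and 1137 ± 170 CPM in WT (SD, n = 3 each). It rose by 0.49 ± 0.13 in CTNNB1_NFE2L2_MET (adjusted p = 0.00446) and by 0.46 ± 0.13 in CTNNB1_MET (adjusted p = 0.0192), the 2 groups with beta-catenin and MET, although the CTNNB1_MET call was lost without WT replicate 1 or 2 or CTNNB1_MET replicate 1 or 3 (adjusted p of 0.0505 to 0.0685). Car5a, the mitochondrial carbonic anhydrase that supplies bicarbonate to CPS1, was picked after its values were seen. It fell by 1.60 ± 0.23 in CTNNB1_NFE2L2_MET (adjusted p = 6.8e-05) and by 0.78 ± 0.23 in CTNNB1_NFE2L2 (adjusted p = 0.011).

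Most genes on the list of pericentral ammonia capture rose in livers with mutant beta-catenin. Of 5 such genes, 4 rose in CTNNB1_NFE2L2_MET, 5 in CTNNB1_NFE2L2 and 4 in CTNNB1_MET against WT, whereas in NFE2L2_MET 1 rose and 3 fell. The share of all genes called higher was 26.5% in CTNNB1_NFE2L2_MET, 24.5% in CTNNB1_NFE2L2 and 11% in CTNNB1_MET. In NFE2L2_MET 23.4% of all genes were called either way and 9.89% were called lower. Glutamine synthetase Glul averaged 2850 ± 288.5 CPM in CTNNB1_NFE2L2_MET, 3921 ± 256 CPM in CTNNB1_NFE2L2, 1803 ± 208 CPM in CTNNB1_MET, 313 ± 45 CPM in NFE2L2_MET and 567 ± 47 CPM in WT (SD, n = 3 each). It rose by 2.33 ± 0.15, 2.79 ± 0.16 and 1.67 ± 0.15 in those 3 beta-catenin groups and fell by 0.86 ± 0.15 in NFE2L2_MET, with adjusted p of 0.00075 or less. The ammonia channel Rhbg rose by 4.20 ± 0.23 in CTNNB1_NFE2L2_MET, 3.41 ± 0.22 in CTNNB1_NFE2L2 and 3.55 ± 0.22 in CTNNB1_MET, with -0.05 ± 0.23 in NFE2L2_MET (adjusted p = 0.905). The glutamate transporter Slc1a2 rose by 1.58 ± 0.19, 3.02 ± 0.20 and 1.82 ± 0.19 in CTNNB1_NFE2L2_MET, CTNNB1_NFE2L2 and CTNNB1_MET and fell by 0.80 ± 0.19 in NFE2L2_MET. The neutral amino acid transporter Slc1a4 rose in all 4 models, including by 3.54 ± 0.29 in NFE2L2_MET (adjusted p = 1.45e-06).

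Genes that use arginine and ornithine were called in both directions. Of 15 listed, 14 were tested, and in CTNNB1_NFE2L2_MET against WT 5 rose and 3 fell, in CTNNB1_NFE2L2 3 rose and 3 fell, in CTNNB1_MET 2 rose and 2 fell, and in NFE2L2_MET 3 rose and 4 fell. Over all genes 26.5% rose and 23.4% fell in CTNNB1_NFE2L2_MET, 24.5% and 24.2% in CTNNB1_NFE2L2, and 11% and 6.22% in CTNNB1_MET, while in NFE2L2_MET 23.4% were called either way. Ornithine aminotransferase Oat, which drains ornithine and is also a pericentral gene, averaged 472 ± 52 CPM in CTNNB1_NFE2L2_MET, 1034 ± 182 CPM in CTNNB1_NFE2L2, 694 ± 70 CPM in CTNNB1_MET, 202 ± 58 CPM in NFE2L2_MET and 459 ± 98 CPM in WT (SD, n = 3 each). It rose by 1.17 ± 0.21 in CTNNB1_NFE2L2 (adjusted p = 0.000289) and fell by 1.18 ± 0.21 in NFE2L2_MET (adjusted p = 0.000933). The cationic amino acid transporter Slc7a2 fell by 2.0002 ± 0.2318 in CTNNB1_NFE2L2_MET (adjusted p = 6.06e-06), 1.41 ± 0.23 in CTNNB1_NFE2L2 (adjusted p = 0.000146) and 0.87 ± 0.23 in NFE2L2_MET (adjusted p = 0.0123). Agmat, agmatinase, fell in all 4 models, least in CTNNB1_MET, by 0.48 ± 0.15 (adjusted p = 0.0352), and most by 1.34 ± 0.15 in CTNNB1_NFE2L2_MET (adjusted p = 3.23e-06). The Agmat call in CTNNB1_MET was lost without WT replicate 1 or 3 or CTNNB1_MET replicate 1 or 2 (adjusted p of 0.068 to 0.142), and the Slc7a2 call in NFE2L2_MET without WT replicate 3 or NFE2L2_MET replicate 3 (adjusted p of 0.0554 and 0.0569). Gatm, the first enzyme of creatine synthesis, rose by 1.20 ± 0.14 in CTNNB1_NFE2L2_MET (adjusted p = 6.03e-06) and by 0.53 ± 0.14 in NFE2L2_MET (adjusted p = 0.0151), the second of which was lost without NFE2L2_MET replicate 3 (adjusted p = 0.0577).

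**Figure D4:**
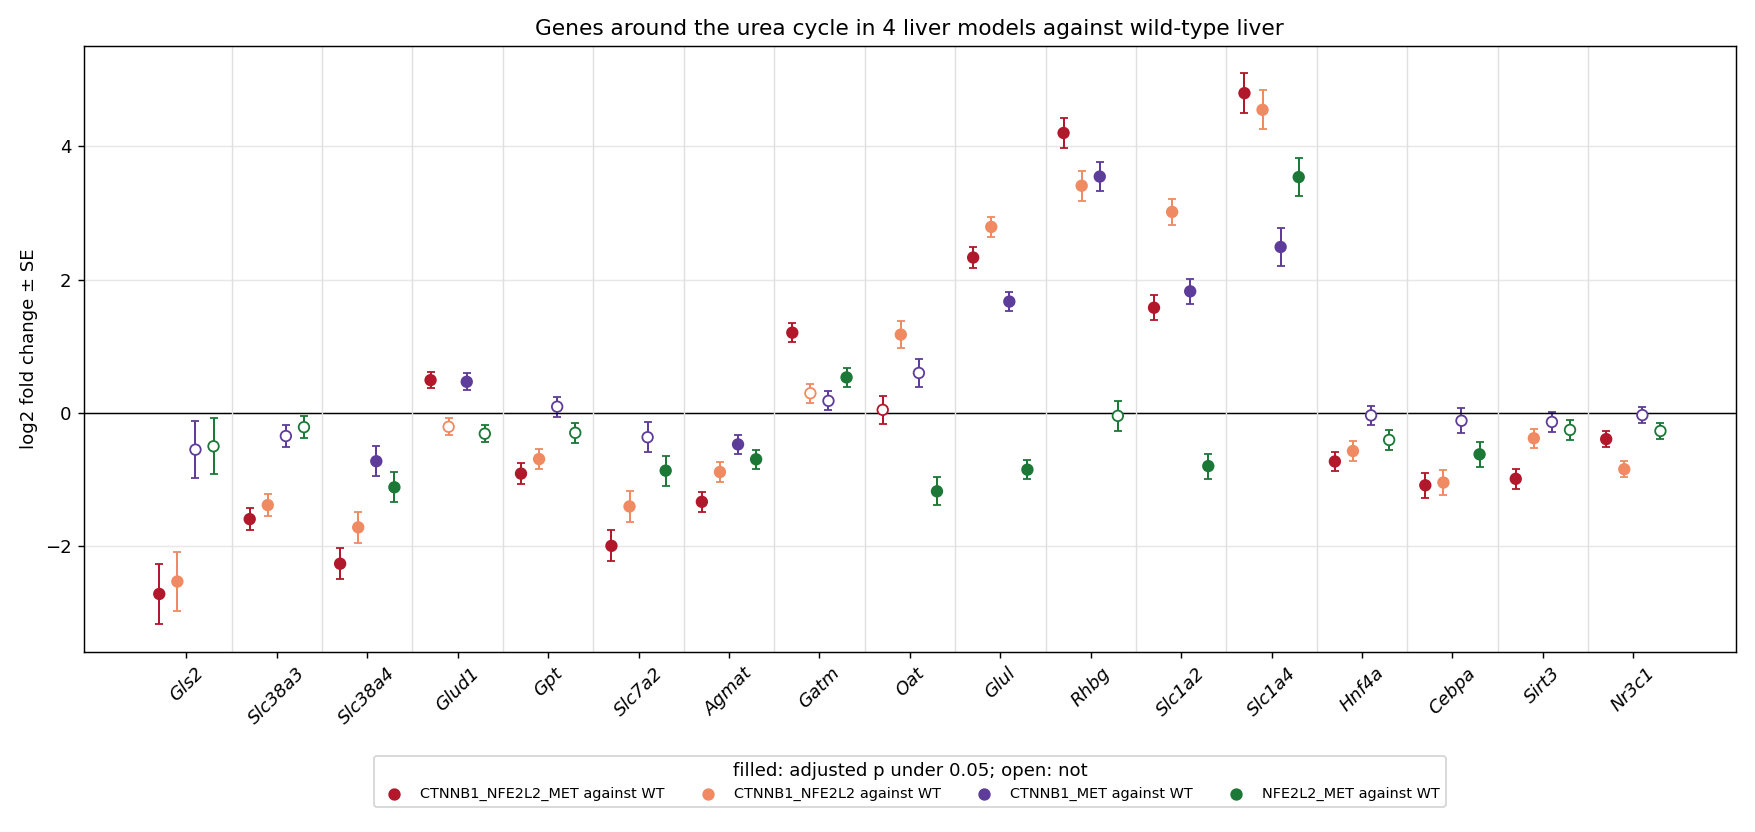
Log2 fold change ± SE against WT liver of genes around the cycle in the 4 models (3 libraries per group); filled points passed an adjusted p of 0.05. From left to right the genes supply ammonia and amino acids (Gls2 to Gpt) and use arginine or ornithine (Slc7a2 to Oat). Next come genes on the list of pericentral ammonia capture (Glul to Slc1a4), which also holds Oat. The last belong to the list around regulation of the cycle (Hnf4a to Nr3c1). Glul and Rhbg are high in the 3 groups with mutant beta-catenin.

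Of the close relatives of the members, Arg2, the mitochondrial arginase, had 1.02 to 3.79 CPM in CTNNB1_NFE2L2_MET against 0.0641 to 0.119 CPM in WT (adjusted p = 0.00033), but no fold is given because the WT libraries held 1 or 2 reads of it. Slc25a12, the other aspartate-glutamate carrier, averaged 12.9 ± 0.2 CPM in CTNNB1_NFE2L2_MET and 14.6 ± 2.6 CPM in WT and passed in none of the 4 models (log2 fold changes of -0.19 to -0.07). Cad, which makes carbamoyl phosphate for pyrimidines, fell by 0.75 ± 0.19 in CTNNB1_NFE2L2 (adjusted p = 0.00438) and did not pass in the other 3. Slc25a2, the other ornithine carrier, had too few counts to be tested.

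Among 7 genes of pyrimidine synthesis, which draws on the same precursor, 5 rose in CTNNB1_NFE2L2_MET against WT. In CTNNB1_NFE2L2 4 rose and 1 fell, in NFE2L2_MET 4 rose and in CTNNB1_MET 1 rose. Of all genes, 26.5% were called higher in CTNNB1_NFE2L2_MET, 24.5% in CTNNB1_NFE2L2 and 11% in CTNNB1_MET. In NFE2L2_MET 23.4% were called either way. Cad, which makes that precursor, rose in no model against WT. For Dhodh the test over the 5 groups did not pass (adjusted p = 0.263). Whether more of the precursor went to pyrimidines was not tested. Ctps, CTP synthase, rose by 1.87 ± 0.18 in CTNNB1_NFE2L2_MET (adjusted p = 9.81e-07), 1.20 ± 0.18 in CTNNB1_NFE2L2 (adjusted p = 7.79e-05) and 1.07 ± 0.19 in NFE2L2_MET (adjusted p = 0.00077). Umps, which makes UMP, rose by 0.82 ± 0.11, 1.11 ± 0.11 and 1.09 ± 0.11 in CTNNB1_NFE2L2_MET, CTNNB1_NFE2L2 and NFE2L2_MET, with adjusted p of 2.31e-05 or less. Thymidylate synthase Tyms rose in all 4 models, by 0.67 ± 0.19 in NFE2L2_MET to 1.49 ± 0.19 in CTNNB1_NFE2L2_MET. For Cmpk1 the rise was by 0.26 ± 0.09 in CTNNB1_NFE2L2_MET (adjusted p = 0.0212) and by 0.24 ± 0.09 in CTNNB1_NFE2L2 (adjusted p = 0.0337). Without WT replicate 1 neither Cmpk1 call was kept (adjusted p of 0.0779 and 0.11), and the same library ended the Tyms calls in NFE2L2_MET (adjusted p = 0.0736) and CTNNB1_MET (adjusted p = 0.0565).

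A list of 12 genes around the regulation of the cycle fell in part. It holds hepatocyte transcription factors and the coactivator Ppargc1a, and also the glucagon receptor Gcgr, the mitochondrial deacylases Sirt3 and Sirt5, which act on proteins, and the tyrosine-degrading enzyme Tat, which is not a regulator. Of the 12, 9 fell in CTNNB1_NFE2L2_MET against WT, 7 in CTNNB1_NFE2L2, 2 in NFE2L2_MET and 0 in CTNNB1_MET, and none rose in any of the 4. Of all genes, 23.4% were called lower in CTNNB1_NFE2L2_MET, 24.2% in CTNNB1_NFE2L2, 9.89% in NFE2L2_MET and 6.22% in CTNNB1_MET. The hepatocyte transcription factor Hnf4a fell by 0.73 ± 0.15 in CTNNB1_NFE2L2_MET (adjusted p = 0.000689) and by 0.58 ± 0.15 in CTNNB1_NFE2L2 (adjusted p = 0.00436). Cebpa, needed for the neonatal rise of these enzymes in mice, fell by 1.09 ± 0.19 in CTNNB1_NFE2L2_MET, 1.05 ± 0.19 in CTNNB1_NFE2L2 and 0.63 ± 0.19 in NFE2L2_MET, with adjusted p of 0.0274 or less. Sirt3, a mitochondrial deacetylase that acts on OTC, fell by 0.99 ± 0.15 in CTNNB1_NFE2L2_MET (adjusted p = 4.86e-05) and by 0.38 ± 0.14 in CTNNB1_NFE2L2 (adjusted p = 0.0382). The glucocorticoid receptor Nr3c1 fell by 0.40 ± 0.12 in CTNNB1_NFE2L2_MET (adjusted p = 0.012) and by 0.85 ± 0.12 in CTNNB1_NFE2L2 (adjusted p = 3.95e-05). Leaving out single libraries ended the Cebpa call in NFE2L2_MET (5 libraries, adjusted p of 0.0508 to 0.115), the Sirt3 call in CTNNB1_NFE2L2 (4 libraries, 0.0776 to 0.159) and the Nr3c1 call in CTNNB1_NFE2L2_MET (3 libraries, 0.0516 to 0.059).

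Of the 7 members, Nags, Otc, Slc25a15 and Slc25a13 had RefSeq promoter entries (GRCm38.p6), in 5 windows, since Slc25a15 has 2. The 250 bases upstream of each start were searched on both strands for 4 motifs: CTTTGAT for TCF/LEF, the partners of beta-catenin, TGACNNNGC for the antioxidant response element bound by NRF2, TTGCNNAA for C/EBP and CAAAGTCC for HNF4. The TCF/LEF letters were found in 1 of the 5 windows, that of Nags, and in 3.21% of all 32851 windows. The other motifs were found in 0 of the 5, against 10.2% of all windows for the antioxidant response element, 9.56% for C/EBP and 1.2% for HNF4. The windows of Nags (chr11:102145263-102145512, + strand) and Otc (chrX:10252055-10252304, + strand) are shown because one belongs to the member that varied least and holds a match, in capitals on the reverse strand, and the other to an enzyme that fell in both mutant-pair groups and holds none.
Nags: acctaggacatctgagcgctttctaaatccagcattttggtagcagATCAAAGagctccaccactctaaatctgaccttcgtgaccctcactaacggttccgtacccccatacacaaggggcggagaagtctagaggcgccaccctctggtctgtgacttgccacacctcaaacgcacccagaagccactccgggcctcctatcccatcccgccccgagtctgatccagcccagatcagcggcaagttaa
Otc: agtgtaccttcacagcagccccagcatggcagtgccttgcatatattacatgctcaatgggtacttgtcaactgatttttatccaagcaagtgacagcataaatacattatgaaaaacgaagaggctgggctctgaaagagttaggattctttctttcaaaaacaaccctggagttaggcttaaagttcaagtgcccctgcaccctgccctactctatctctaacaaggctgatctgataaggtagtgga

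Cell type markers also differed between the groups, as did many other genes. Against WT, 49.9% of all genes were called in CTNNB1_NFE2L2_MET, 48.7% in CTNNB1_NFE2L2, 23.4% in NFE2L2_MET and 17.2% in CTNNB1_MET. Whether any list of markers was called more often than all genes was not tested. Of 7 hepatocyte markers in the files, 4 fell in CTNNB1_NFE2L2_MET against WT, 6 fell in CTNNB1_NFE2L2, 2 rose and 1 fell in NFE2L2_MET, and 2 rose in CTNNB1_MET. Their summed level was 69089 to 76634 CPM in CTNNB1_NFE2L2_MET, 32902 to 40268 in CTNNB1_NFE2L2, 135800 to 140980 in CTNNB1_MET, 136870 to 179410 in NFE2L2_MET and 80793 to 102830 in WT. The higher sums in CTNNB1_MET and NFE2L2_MET came mostly from Alb, at 97473 ± 1665 CPM in CTNNB1_MET, 123470 ± 20330 in NFE2L2_MET and 50866 ± 10970 in WT, and from Ahsg, at 15251 ± 2115 CPM in CTNNB1_MET, 11811 ± 1535 in NFE2L2_MET and 6811 ± 455 in WT (SD, n = 3 each). The other 5 markers averaged below WT in CTNNB1_MET without passing the test, and the median log2 fold change of the 7 was -0.91 in CTNNB1_NFE2L2_MET, -1.06 in CTNNB1_NFE2L2, -0.32 in CTNNB1_MET and -0.06 in NFE2L2_MET. Macrophage markers rose for 6 of 7 genes in CTNNB1_NFE2L2_MET, CTNNB1_NFE2L2 and NFE2L2_MET and for 3 of 7 in CTNNB1_MET, and summed to 338 to 499 CPM in CTNNB1_NFE2L2_MET, 355 to 489 in CTNNB1_NFE2L2, 216 to 285 in CTNNB1_MET, 313 to 390 in NFE2L2_MET and 182 to 202 in WT. Endothelial markers summed to 153 to 177 CPM in CTNNB1_NFE2L2_MET, 170 to 188 in CTNNB1_NFE2L2, 163 to 209 in CTNNB1_MET, 216 to 230 in NFE2L2_MET and 153 to 199.7 in WT. Stellate cell and fibroblast markers summed to 458 to 616 CPM in CTNNB1_NFE2L2_MET, 139 to 221 in CTNNB1_NFE2L2, 397 to 478.5 in CTNNB1_MET, 345 to 419 in NFE2L2_MET and 251 to 603 in WT. Reln made up most of the sum in CTNNB1_NFE2L2_MET, at 307 ± 48 CPM, and in CTNNB1_MET, at 271 ± 51 CPM, against 37.6 ± 10.8 CPM in WT (SD, n = 3 each). Of these 7 markers, 1 rose and 3 fell in CTNNB1_NFE2L2_MET against WT, and 4 fell in CTNNB1_NFE2L2. In CTNNB1_MET 1 rose and 4 fell, and in NFE2L2_MET 1 rose and 1 fell. Cholangiocyte markers summed to 58.1 to 79.3 CPM in CTNNB1_NFE2L2_MET, 39.0 to 60.6 in CTNNB1_NFE2L2, 49.5 to 53.1 in CTNNB1_MET, 99.5 to 117.7 in NFE2L2_MET and 57.9 to 146 in WT. In every model Epcam averaged above WT and Spp1 below. Epcam averaged 27.2 CPM in CTNNB1_NFE2L2_MET, 20.3 in CTNNB1_NFE2L2, 1.6 in CTNNB1_MET, 37.8 in NFE2L2_MET and 0.78 in WT. Spp1 averaged 34.1, 18.5, 42.3, 55.9 and 99.04 CPM in the same order. Of the 5 cholangiocyte markers tested, 2 rose and 2 fell in CTNNB1_NFE2L2_MET against WT. In CTNNB1_NFE2L2 1 rose and 2 fell, in CTNNB1_MET 2 fell, and in NFE2L2_MET 1 rose. T and B cell markers summed to 19.8 to 31.3 CPM in CTNNB1_NFE2L2_MET, 9.78 to 16.3 in CTNNB1_NFE2L2, 11.6 to 15.9 in CTNNB1_MET, 12.6 to 13.3 in NFE2L2_MET and 5.90 to 6.94 in WT. Most of that sum was Ptprc, a gene of all leukocytes, macrophages included, at 22.1 ± 5.6 CPM in CTNNB1_NFE2L2_MET and 4.87 ± 0.41 CPM in WT, while the T cell gene Cd3e averaged 0.46 CPM in CTNNB1_NFE2L2_MET and 0.22 CPM in WT and the B cell gene Ms4a1 0.64 CPM in CTNNB1_NFE2L2_MET and 0.17 CPM in WT. Of all markers looked for, Cftr of cholangiocytes was the 1 at 0 counts in some libraries, 7 of 15. The part of these shifts in the results above was not tested.

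The share of unmapped reads differed between the groups as well. WT libraries had the most unmapped reads and the 2 mutant-pair groups, with the lowest summed urea cycle levels, the fewest. For the summed level the order was not the same throughout. All 3 NFE2L2_MET libraries had a lower unmapped share and a higher sum than every CTNNB1_MET library. That higher sum came mostly from Arg1, at 2442 ± 188 CPM in NFE2L2_MET and 982 ± 145 CPM in CTNNB1_MET (SD, n = 3 each). Cps1, the next largest part, averaged 1923 CPM in NFE2L2_MET and 1930 CPM in CTNNB1_MET. A term for the unmapped share, chosen after seeing the data, was added to the fit. Against WT 0 of 7 genes then passed in any model, and 0 of 7 in CTNNB1_NFE2L2_MET or CTNNB1_NFE2L2 against CTNNB1_MET. With it, Cps1 had a log2 fold change of -0.74 ± 0.93 in CTNNB1_NFE2L2_MET (adjusted p = 0.748) and -0.97 ± 0.89 in CTNNB1_NFE2L2 (adjusted p = 0.599). Against NFE2L2_MET, whose unmapped shares were nearest to those of the mutant-pair groups, the enzymes still passed: in CTNNB1_NFE2L2_MET against NFE2L2_MET, Arg1 had -2.16 ± 0.24 (adjusted p = 3.42e-05), Cps1 -1.45 ± 0.39 (adjusted p = 0.0218), Otc -1.44 ± 0.27 (adjusted p = 0.00256) and Asl -0.96 ± 0.22 (adjusted p = 0.00734). The unmapped shares of the mutant-pair libraries do not overlap those of any other group, so the share and the genotype cannot be told apart.

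**Figure D5:**
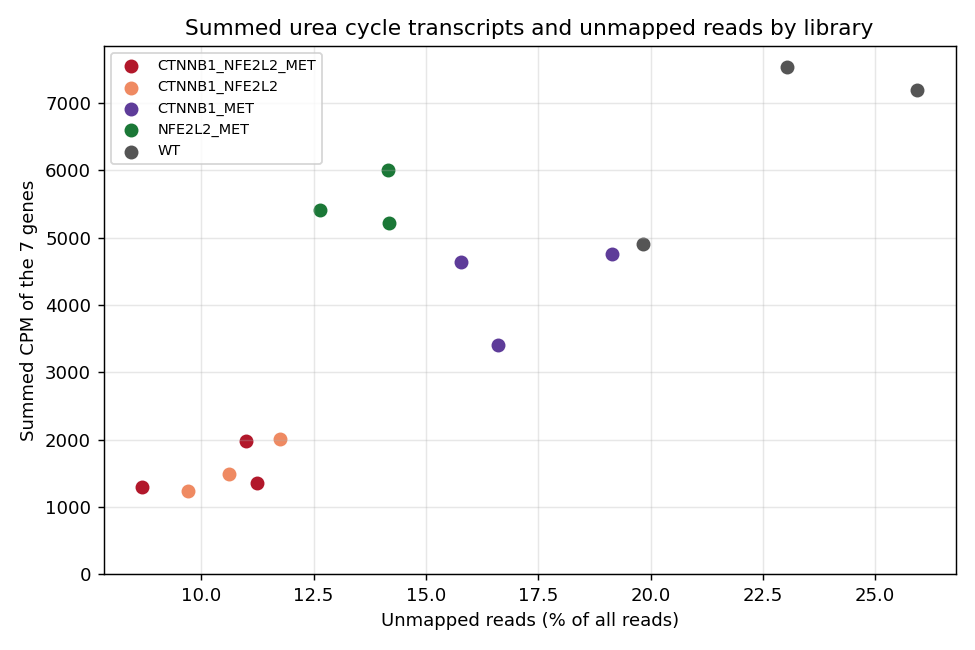
Summed CPM of the 7 genes (vertical axis) against the unmapped reads as a percent of all reads (horizontal axis), 1 point per library, 3 libraries per group. The 6 mutant-pair libraries lie at 2012 CPM or less and at 11.8% unmapped or less. The NFE2L2_MET libraries lie at 5212 CPM or more and at 12.7 to 14.2%, above CTNNB1_MET mostly through Arg1. The CTNNB1_MET libraries lie at 3408 to 4756 CPM and at 15.8 to 19.1%, and the WT libraries are the farthest right.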

How the data were processed

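RNA-seq counts of 15 mouse liver libraries were used, with 3 libraries in each of 5 groups. Per the submitters' processing notes, the authors used Trimmomatic and STAR with mm10, with versions not given in the sources used here, and deposited STAR gene counts per library. The column without strand was used here, because the 2 strand columns were nearly equal. Rows that name no gene (unmapped, multimapping, no feature, ambiguous) stayed out of library sizes. edgeR 4.0.16 (R 4.3.3, limma 3.58.1) was run with filterByExpr, TMM scaling, 1 coefficient per group over all 15 libraries and robust quasi-likelihood F tests, for 10 contrasts and for any difference among the 5 groups. P-values were adjusted by Benjamini-Hochberg over the 14098 genes tested, with a threshold of 0.05. The SE is the log2 fold change divided by the square root of F. Likeness used log2 CPM with a prior count of 2 and genes of mean log2 CPM of 3 or more. DESeq2 1.42.0 and other scalings, filters and samples were tried. Transcript lengths and positions came from GENCODE on GRCm38 and promoters from RefSeq. The functions were tested on simulated data. Named genes were the 7 members, up to 4 genes of each related list with the smallest p of the 5-group test, and the nearest 3 genes by likeness; Car5a was added after its values were seen. The members and lists were chosen with earlier results of these data known. Replicate numbers follow sample order. No 2 libraries of a group agreed within sampling noise (chi-square per gene of 13.2 to 108).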

Additional observations from a re-analysis of the deposited data

Results flagged for a closer look

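For these genes every library of one model lay above all WT libraries and every library of another model lay below them. The adjusted p-values between the models are those of edgeR over all genes. They come from the same libraries that the genes were picked by, so they are no separate support. The share of all genes that meet this rule is not given here. Groups of 3 libraries were too small to look for outlying samples. Arg1 was lower in all 3 beta-catenin models than in NFE2L2_MET, with log2 fold changes of -2.48 in CTNNB1_NFE2L2_MET (adjusted p = 1.42e-06), -2.81 in CTNNB1_NFE2L2 (adjusted p = 3.13e-07) and -1.31 in CTNNB1_MET (adjusted p = 0.000675).

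Glul differed from NFE2L2_MET by 3.19 in CTNNB1_NFE2L2_MET, 3.65 in CTNNB1_NFE2L2 and 2.53 in CTNNB1_MET, with adjusted p of 4.61e-08 or less. Slc1a2 differed from NFE2L2_MET by 2.38 in CTNNB1_NFE2L2_MET, 3.82 in CTNNB1_NFE2L2 and 2.62 in CTNNB1_MET, with adjusted p of 5.07e-07 or less. Oat differed from NFE2L2_MET by 2.35 in CTNNB1_NFE2L2 (adjusted p = 9.64e-07) and 1.78 in CTNNB1_MET (adjusted p = 3.14e-05).

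Glud1 divided the models by the joint presence of beta-catenin and MET. It differed by 0.80 in CTNNB1_NFE2L2_MET against NFE2L2_MET (adjusted p = 0.000231), 0.70 in CTNNB1_NFE2L2_MET against CTNNB1_NFE2L2 (adjusted p = 0.00113), -0.68 in CTNNB1_NFE2L2 against CTNNB1_MET (adjusted p = 0.000684) and 0.78 in CTNNB1_MET against NFE2L2_MET (adjusted p = 0.000561). Cmpk1 differed by 0.49 in CTNNB1_NFE2L2_MET against CTNNB1_MET (adjusted p = 0.000619).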

How the results depend on the processing

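No paired analysis was possible because nothing in the titles ties a library of one group to a library of another. Leaving out each library in turn gave 6 to 7 genes changed of the 7 in CTNNB1_NFE2L2_MET against WT, 5 to 6 in CTNNB1_NFE2L2 against WT, 1 to 2 in NFE2L2_MET against WT and 0 to 2 in CTNNB1_MET against WT. Between models it gave 5 in CTNNB1_NFE2L2_MET against NFE2L2_MET, 6 to 7 against CTNNB1_MET, 1 to 2 against CTNNB1_NFE2L2, 4 to 5 in CTNNB1_NFE2L2 against CTNNB1_MET and against NFE2L2_MET, and 1 to 3 in CTNNB1_MET against NFE2L2_MET. In NFE2L2_MET against WT, where 2 genes passed, 1 passed without a filter on low counts, with counts of a single strand, with a covariate for the 3 libraries whose file names mark them as additions (replicate 3 of CTNNB1_NFE2L2_MET, CTNNB1_MET and WT), without those 3, or with only the libraries compared in the fit, and 3 passed with DESeq2 or total-count scaling. In CTNNB1_MET against WT, where 1 gene passed, 2 passed with that covariate and 0 without those libraries.

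A term for the unmapped share, chosen after seeing the data, left 0 genes of the 7 in each of the 4 models against WT and in CTNNB1_NFE2L2_MET and CTNNB1_NFE2L2 against CTNNB1_MET, and 1 in CTNNB1_MET against NFE2L2_MET; the cause was not tested, since the share follows the groups. Over all genes it left 2.11% called in CTNNB1_NFE2L2_MET against WT and 4.31% in CTNNB1_NFE2L2 against WT. Under it 14 of the members' 70 log2 fold changes turned sign, 2 of them calls. Against WT the turned values were those of Cps1 (0.20 in CTNNB1_MET and 0.71 in NFE2L2_MET), Otc (0.35 and 1.11 in the same models), Asl (0.63 in NFE2L2_MET) and Nags (0.22 in CTNNB1_NFE2L2_MET and 0.0122 in NFE2L2_MET, both calls, 0.40 in CTNNB1_NFE2L2 and 0.22 in CTNNB1_MET), with adjusted p of 0.397 to 0.996. Among the calls of other genes, log2 fold changes turned positive for Gpt (0.0109 in CTNNB1_NFE2L2_MET and 0.20 in CTNNB1_NFE2L2 against WT), Sirt3 (0.332 in CTNNB1_NFE2L2 against WT) and Agmat (0.0898 in CTNNB1_NFE2L2, 0.0013 in CTNNB1_MET and 0.0453 in NFE2L2_MET against WT, and 0.0885 in CTNNB1_NFE2L2 against CTNNB1_MET).

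Scaling by total count alone moved the median log2 fold change of all genes to 0.38 in CTNNB1_NFE2L2_MET and 0.30 in CTNNB1_NFE2L2 against NFE2L2_MET, and to 0.26 and 0.18 in the same models against CTNNB1_MET. Against WT it moved to 0.22 in CTNNB1_NFE2L2_MET, 0.17 in CTNNB1_NFE2L2 and -0.13 in NFE2L2_MET, and to 0.10 in CTNNB1_MET against NFE2L2_MET. The share of calls that were higher was then 73.4% against 53.1% with TMM in CTNNB1_NFE2L2_MET against WT, 67.9% against 50.3% in CTNNB1_NFE2L2 against WT, 35.3% against 57.8% in NFE2L2_MET against WT, and 88.5% against 53.5% in CTNNB1_NFE2L2_MET against NFE2L2_MET. It was 82.7% against 54.5% in CTNNB1_NFE2L2_MET against CTNNB1_MET, 82% against 49.2% in CTNNB1_NFE2L2 against NFE2L2_MET, 75.7% against 51.1% in CTNNB1_NFE2L2 against CTNNB1_MET, and 67.8% against 48.6% in CTNNB1_MET against NFE2L2_MET. Of 1750 values of the members under all alternatives, 1640 kept their side of the threshold, 60 of those with the opposite sign and none of these a call, 90 dropped out of the calls, 18 entered them, and 2 were calls whose sign turned.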
